A study of Mus musculus with 10 samples.

Results

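The genes described here are 10 genes of MHC class I antigen presentation and of the immunoproteasome: H2-K1, H2-D1, B2m, Tap1, Tap2, Tapbp, Psmb8, Psmb9, Psmb10 and Nlrc5. They were taken by symbol from the deposited gene table, and all 10 were found among its 55359 genes. All 10 were also among the 18746 genes tested, those averaging 0.1 FPKM or more. FPKM is the number of sequenced fragments of a gene scaled by its exon length and by the depth of the library, so that levels can be compared between genes per length. RNA-seq had been run on lineage-negative (Lin−) bone marrow cells, the fraction left after mature blood cells are depleted, which holds stem and progenitor cells. Of the 10 libraries, 5 were labelled Dhx9f/f (WT), mice in which both Dhx9 alleles are floxed and no Cre is named. The other 5 were labelled Dhx9f/f;MX1 (cKO), mice with the same floxed alleles and an MX1-Cre transgene. Dhx9 encodes an RNA helicase, and the comparison asks what its deletion does to the transcriptome of these cells. MX1-Cre is switched on by injection of poly(I:C), a double-stranded RNA mimic that itself triggers interferon, through an interferon-responsive promoter that is active in many cell types. The methods give poly(I:C) to MX1-Cre mice and time the analysis from the first dose, and for a transplant experiment the same timing is given for Dhx9f/f donors. Figure legends of other experiments that hold both genotypes also time all their mice from the first dose. Whether the Dhx9f/f mice of the RNA-seq were injected is not said for it by name, and genotype and injection cannot be told apart if they were not. The methods randomised sex and, unless otherwise stated, count individual mice as replicates. Age, strain and the sex behind each library were not given in the sources used here. P-values measure the spread between these libraries.

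Every nucleated cell can show fragments of its own proteins to CD8 T cells on MHC class I molecules. The proteasome cuts cytosolic proteins into peptides, the TAP transporter carries the peptides into the endoplasmic reticulum, and tapasin helps load them onto a class I heavy chain paired with β2-microglobulin. When cells meet interferon, 3 catalytic subunits of the standard proteasome are replaced in newly made particles by the immunosubunits encoded by Psmb8, Psmb9 and Psmb10. NLRC5 is the transactivator of the class I genes in lymphoid and other haematopoietic cells, and blood cells express class I genes at high levels.

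The targeted gene went against the labels. Dhx9 was at 68.96, 72.42, 72.18, 69.55 and 65.43 FPKM among the libraries labelled WT 1 to 5, and at 130.82, 148.8, 131.25, 156.49 and 131.98 FPKM among those labelled cKO 1 to 5. The means were 69.7 and 139.9 FPKM (n = 5 each), higher in the libraries labelled cKO (limma adjusted p = 1.39e-05, SE 0.0654 on the log2 scale), and all 5 lay above all 5 labelled WT. A gene-level FPKM does not show whether the floxed part of the transcript is present. Every direction below is therefore a direction between labels, written as "labelled cKO" and "labelled WT". Xist, a female-specific transcript in mice, was above 1 FPKM in WT 3, 4 and 5 and in no other library, so the groups also differed in the sex-linked signal.

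The libraries held 13839872 to 18710954 fragments, as recovered from the steps between low values. For the 10 genes this corresponds to about 63 fragments at the least, for Nlrc5 in cKO 4, and about 55977 at the most, for B2m. A gene is called here where its limma adjusted p was below 0.05 and its difference 2-fold or larger. By that rule 16.8% of all genes tested were lower under the cKO label and 4.6% were higher. Calls in the higher direction were thus 21.5% of all calls, and 38.8% under quantile normalization, which moved the median log2 difference of all genes from -0.11 to 0.08. Markers of several cell types moved with the labels. The summed level of 17 monocyte and dendritic cell markers was 768 to 1382 FPKM among the libraries labelled WT and 8.86 to 216 FPKM among those labelled cKO, with 13 of the 17 called lower. Itgax, Siglech, Batf3 and Xcr1 of that list were at 0 in some libraries. The summed level of 7 pan-leukocyte markers was 363 to 552 against 115 to 184 FPKM, with Coro1a, Laptm5 and Cd53 as the most abundant. The 13 erythroid markers tested summed to 660 to 1758 against 2304 to 3823 FPKM, with 8 called higher, among them the globin genes Hbb-bs, Hbb-bt and Hba-a1. Fewer cells of a type and less RNA per cell cannot be told apart in these bulk libraries. The part of cell composition in the results below was not tested.

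Class I genes carry short regulatory sequences just upstream of their start, and the heavy chain genes and B2m are shown because they share them. Of the 10 genes, 8 had an entry in the RefSeq promoter table (build GRCm38.p6), from which the 250 bases before the annotated start were read and placed on GRCm39 by exact match. Motif letters were searched on both strands, and a match is only a description. The CCAAT box (CCAAT) was in 6 of the 8 windows and in 36.4% of the windows of 10993 tested genes. The half-site of a cyclic AMP response element (TGACG) was in 5 of 8 and in 26.6% of all windows. The core of an interferon regulatory factor site (AANNGAAA) was in 3 of 8, which were H2-K1, H2-D1 and B2m, and in 16.7% of all windows. The NF-κB site, searched by its usual decamer, was in the same 3 windows and in 8.38% of all windows. Because that decamer is a palindrome in part, 2 overlapping matches on H2-K1 and on H2-D1 stand for 1 stretch. The window of H2-K1, at chr17:34219322-34219571 on the minus strand of GRCm39, is printed whole with these matches in capitals. An exon of the antisense gene Gm53999 covers 71 of its bases. The windows of Tap1 and Psmb9 are largely 1 stretch read on opposite strands, so their shared CCAAT and TGACG are counted for both genes. The windows of Psmb8 and Psmb10 held none of these letters.
H2-K1: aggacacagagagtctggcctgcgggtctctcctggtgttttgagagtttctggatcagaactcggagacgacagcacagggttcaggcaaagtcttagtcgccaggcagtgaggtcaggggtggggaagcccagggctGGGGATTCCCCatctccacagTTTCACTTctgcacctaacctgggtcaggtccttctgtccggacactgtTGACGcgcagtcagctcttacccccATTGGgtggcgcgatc

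The first pair of matches, the NF-κB and interferon regulatory factor letters, spanned 29 bases in H2-K1 and in H2-D1, which were identical at 28 of the 29. In B2m the same pair stood in the opposite order over 21 bases. Of the 8 windows, only that of H2-K1 lay clear of the gene's own exons in GENCODE vM39. The other 7 lay wholly (H2-D1, Tap1, Tapbp, Psmb8 and Psmb9) or partly (B2m and Psmb10) within them, so only short stretches of H2-D1 and B2m are printed, and the motif counts rest on these windows. They lie at chr17:34219404-34219432 (H2-K1, minus strand), chr17:35481899-35481927 (H2-D1, plus strand) and chr2:121978031-121978051 (B2m, plus strand):
H2-K1: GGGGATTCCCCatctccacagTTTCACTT
H2-D1: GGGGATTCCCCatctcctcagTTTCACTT
B2m: AACTGAAAatgGGAAAGTCCC

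The second pair, TGACG and the reverse complement of CCAAT, had the same 30-base end-to-end length in all 3 genes, although the bases between them differed. The H2-K1 and H2-D1 stretches were identical at 23 of 30 bases, and B2m and H2-K1 at 13 of 30. Both counts include the bases of the 2 matches, which are the same in all 3 genes by the choice of the stretches. Only 31 of the 10993 windows (0.282%) held the 2 matches over 30 bases, a length chosen after these sequences were seen. Among the 31 was also H2-M3, a class Ib heavy chain gene. The stretches lie at chr17:34219333-34219362 (H2-K1, minus strand), chr17:35481969-35481998 (H2-D1, plus strand) and chr2:121978090-121978119 (B2m, plus strand):
H2-K1: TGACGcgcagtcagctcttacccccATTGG
H2-D1: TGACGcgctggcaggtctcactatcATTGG
B2m: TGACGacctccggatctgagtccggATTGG

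All 10 genes were lower on average in the libraries labelled cKO, by 0.29 to 1.44 on the log2 scale, with a median log2 difference of -0.50. The median over all genes tested was -0.11. Psmb8 and Psmb9, both immunosubunits, were called lower. That is 2 of 10 genes beside 16.8% of all genes, so the share called was near the background, and none of the 10 was called higher. At an adjusted p under 0.05 without the fold threshold, 6 of 10 passed as lower (Psmb8, Psmb9, Psmb10, Tap2, H2-D1 and Tapbp), beside 28.3% of all genes lower and 16.7% higher. H2-K1, B2m, Tap1 and Nlrc5 did not pass. With Xist as a term in the fit, or in the 7 libraries with Xist below 1 FPKM alone (the low-Xist libraries), only Psmb8 of the 10 passed, and under median-ratio scaling 3 did. Xist was above 1 FPKM only in WT 3, 4 and 5, so both Xist settings take the WT side from WT 1 and 2 alone. They give the same log2 differences and are not separate checks. Psmb8 was the only one of the 10 whose groups did not overlap, beside 21.6% of all genes with the libraries labelled cKO wholly below and 10.6% wholly above.

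**Figure D1:**
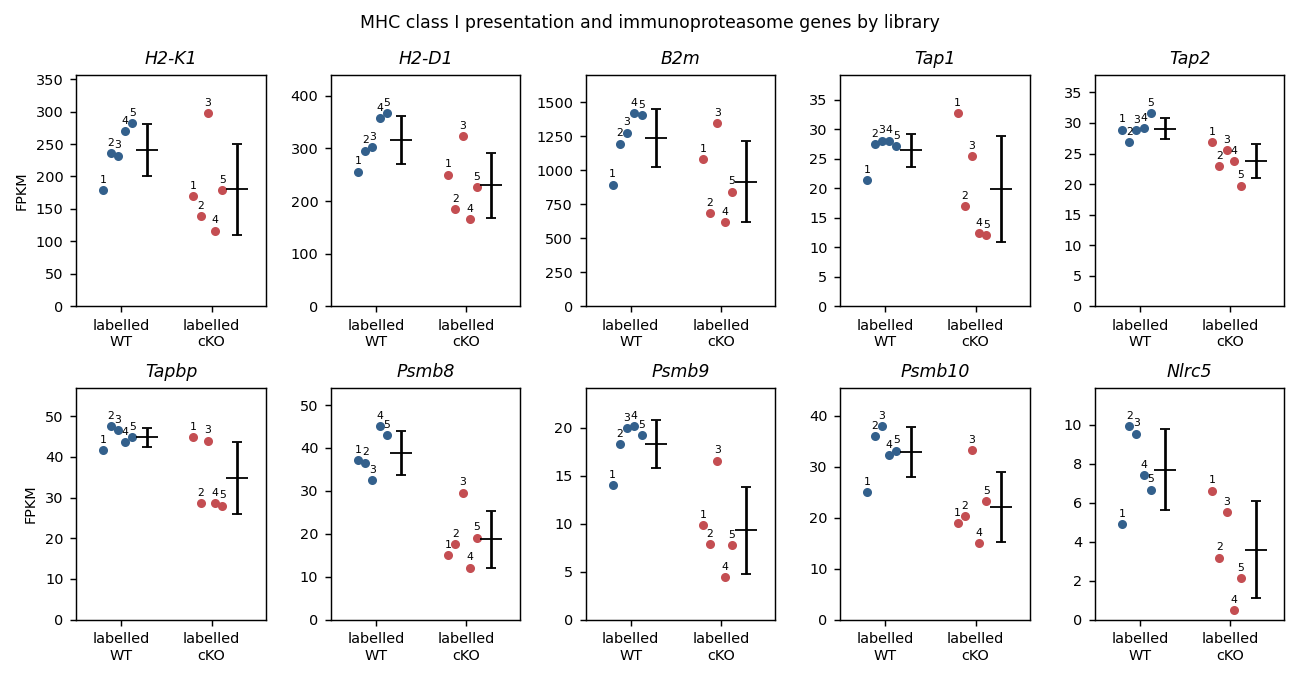
FPKM of each of the 10 genes (y axis, from 0, 1 scale per panel) in the 5 libraries labelled WT (blue) and the 5 labelled cKO (red), with the replicate number at each point and the mean ± SD beside them. Psmb8 is the only panel without overlap, and cKO 1 and 3 lie within or near the WT range in most of the others.

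Both called genes encode immunosubunits. Psmb8 (ENSMUSG00000024338, chr17:34416690-34420428, plus strand) encodes β5i, the chymotrypsin-like immunosubunit. It was at 37.13, 36.56, 32.47, 45 and 42.95 FPKM in WT 1 to 5 and at 14.98, 17.6, 29.61, 12.14 and 19.14 FPKM in cKO 1 to 5. The highest of the libraries labelled cKO, cKO 3, was below the lowest labelled WT, WT 3. The means were 38.8 ± 5.09 and 18.7 ± 6.66 FPKM (SD, n = 5 each), a difference of -1.11 on the log2 scale (SE 0.202, limma adjusted p = 0.00125).

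Psmb9 (ENSMUSG00000096727, chr17:34400960-34406738, minus strand) encodes β1i, the immunosubunit that replaces the caspase-like subunit. It was at 13.99, 18.26, 19.9, 20.11 and 19.18 FPKM in WT 1 to 5 and at 9.83, 7.84, 16.56, 4.46 and 7.79 FPKM in cKO 1 to 5. Only cKO 3 overlapped with the libraries labelled WT, and only with WT 1. The difference was -1.08 on the log2 scale (SE 0.277, limma adjusted p = 0.00849). Without cKO 4, its lowest library, Psmb9 was at -0.85 and Psmb8 at -0.97, both under the fold threshold, so that none of the 10 genes was called. Psmb9 also lost its call with a pseudocount of 1, which left it just short of the fold threshold, under median-ratio scaling (-0.98) and quantile normalization (-0.97), and with the Xist term (-0.90, limma adjusted p = 0.0939).

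Psmb10 (ENSMUSG00000031897, chr8:106662362-106665077, minus strand) encodes β2i, which replaces the trypsin-like subunit. It was at 24.96 to 37.86 FPKM among the libraries labelled WT and at 14.93 to 33.18 FPKM among those labelled cKO. The difference of -0.60 (SE 0.190, limma adjusted p = 0.0236) passed the adjusted p but not the fold threshold. It no longer passed without WT 2, WT 3, cKO 2 or cKO 4, or with the Xist term, with adjusted p-values over all alternatives from 0.00286 to 0.268. In cKO 3 it was at 33.18 FPKM, above the WT median of 33.11 FPKM, while the other libraries labelled cKO were at 23.21 FPKM or lower, below every library labelled WT.

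The standard subunits went the other way. All 14 standard subunits of the proteasome core (Psma1 to Psma7 and Psmb1 to Psmb7) had positive log2 differences, from 0.07 to 0.58, and 12 of the 14 passed an adjusted p under 0.05 as higher, beside 16.7% of all genes. None reached the fold threshold. Psmb5, the standard partner of Psmb8, was higher by 0.28 (SE 0.0846, limma adjusted p = 0.0197), and did not pass under quantile normalization or in the low-Xist libraries. Psmb6, the partner of Psmb9, was higher by 0.29 (SE 0.0633, limma adjusted p = 0.00347), and Psmb7, the partner of Psmb10, by 0.40 (SE 0.0743, limma adjusted p = 0.00133). For 9 of the 14, Psmb6 and Psmb7 among them, all libraries labelled cKO lay above all labelled WT, beside 10.6% of all genes. Under quantile normalization 1 of the 14 had a negative difference and 10 passed. Erythroid markers were higher in the same libraries, as given above, and their part in this was not tested.

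**Figure D2:**
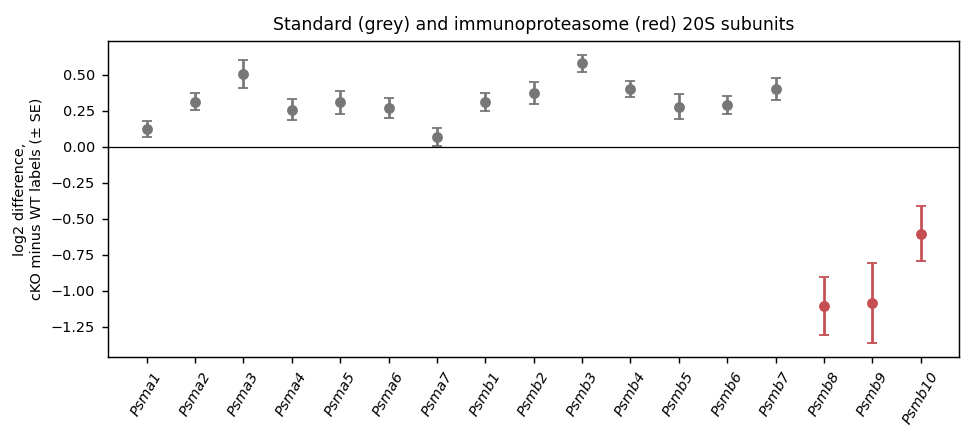
Log2 difference between the libraries labelled cKO and WT (y axis, points, with limma SE as bars) for the 14 standard subunits of the proteasome core (grey) and the 3 immunosubunits (red). The standard subunits lie between 0.07 and 0.58 and the immunosubunits between -1.11 and -0.60.

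A ratio of 2 genes within a library does not depend on how that library was scaled, and 7 ratios were compared by two-sided exact permutation tests of the log2 ratio with Benjamini-Hochberg adjustment over the 7. With 5 libraries against 5, the smallest p these tests can give is 0.00794. The ratio of Psmb8 to Psmb5 was 0.347 ± 0.0538 in the libraries labelled WT and 0.137 ± 0.0460 in those labelled cKO (SD, n = 5 each), a log2 difference of -1.39 (exact permutation p = 0.00794, adjusted p = 0.0139). The ranges were 0.266 to 0.397 and 0.0884 to 0.213, with no overlap.

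The ratio of Psmb9 to Psmb6 was 0.310 ± 0.0366 and 0.129 ± 0.0595 in the same order, a log2 difference of -1.38 (exact permutation p = 0.00794, adjusted p = 0.0139). For Psmb10 to Psmb7 the ratio was 0.875 ± 0.0807 and 0.446 ± 0.128, a log2 difference of -1.01 (exact permutation p = 0.00794, adjusted p = 0.0139). All 5 libraries labelled cKO were below all 5 labelled WT in each of the 3 ratios, including cKO 3, whose Psmb10 level alone was within the WT range. Each of the 3 kept an adjusted p under 0.05 when any 1 library was left out, at 0.037 or lower. Among the libraries with Xist below 1 FPKM, 2 labelled WT and 5 labelled cKO, the log2 differences were -1.41, -1.23 and -0.99, with too few libraries for the test to pass after adjustment (exact permutation, adjusted p = 0.167, 0.25 and 0.167).

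**Figure D3:**
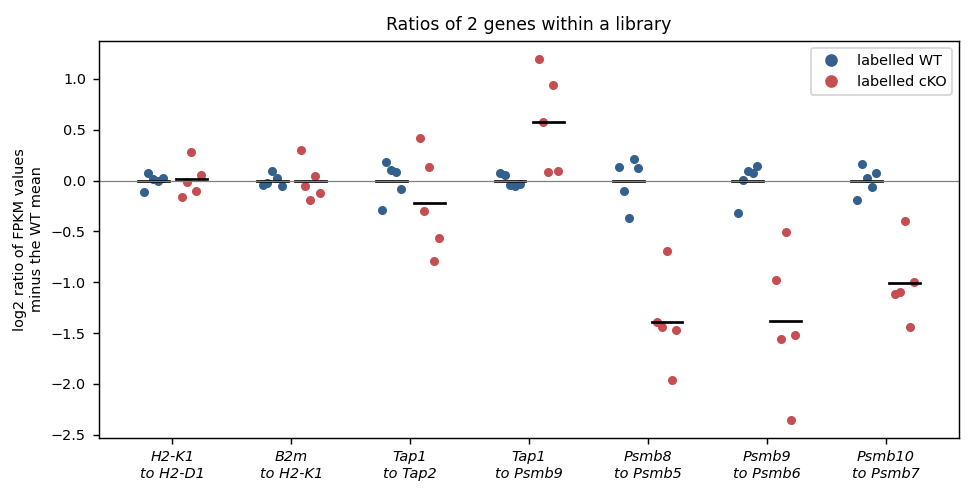
Log2 ratio of the FPKM values of 2 genes in each library, minus the mean of the libraries labelled WT (y axis), for 7 pairs of genes (x axis), with group means as black bars. The 3 ratios of an immunosubunit to its standard partner are lower in all 5 libraries labelled cKO (red) than in all 5 labelled WT (blue), and the ratios among H2-K1, H2-D1 and B2m overlap.

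The class I chains themselves were the most abundant of the 10 genes. B2m (ENSMUSG00000060802, chr2:121977957-121983594, plus strand), the invariant light chain, led the order per length in both groups. It was at 895.75, 1196.11, 1278.31, 1420.54 and 1404.79 FPKM in WT 1 to 5 and at 1080.56, 687.1, 1347.65, 622.08 and 843.48 FPKM in cKO 1 to 5. The groups overlapped, since WT 1 was below both cKO 1 and cKO 3. The log2 difference was -0.48 (SE 0.213, limma adjusted p = 0.0912). B2m passed without cKO 3 (-0.63, limma adjusted p = 0.0211) and under quantile normalization (-0.65, limma adjusted p = 0.0389).

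H2-K1 (ENSMUSG00000061232, chr17:34214987-34219321, minus strand), a classical heavy chain, was at 179.45, 236.41, 232.18, 269.81 and 282.37 FPKM in WT 1 to 5. In cKO 1 to 5 it was at 169.87, 138.46, 297.46, 116.78 and 178.48 FPKM. The highest of all 10 values was in cKO 3, while the other libraries labelled cKO were below all labelled WT. The log2 difference was -0.47 (SE 0.223, limma adjusted p = 0.108). Without cKO 3 it was -0.67 and passed (limma adjusted p = 0.00764), a change of side that leaving out no other library made.

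H2-D1 (ENSMUSG00000073411, chr17:35481691-35486475, plus strand), the other classical heavy chain, was at 256 to 367 FPKM among the libraries labelled WT and at 165 to 323 FPKM among those labelled cKO. Its log2 difference of -0.49 (SE 0.173, limma adjusted p = 0.0399) was close to those of H2-K1 and B2m. Leaving out WT 2, 3, 4 or 5, or cKO 2, 4 or 5, took it above the threshold, with adjusted p-values over all alternatives from 0.00726 to 0.420. The class I heavy chain genes are near-identical copies, and the mouse strain, and so the H2 haplotype, was not given, so counts could be split or lost among them and their levels are uncertain.

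The proportions of the 3 chains did not differ by more than the spread between libraries. The ratio of H2-K1 to H2-D1 was 0.758 ± 0.0359 in the libraries labelled WT and 0.769 ± 0.0945 in those labelled cKO (SD, n = 5 each), a log2 difference of 0.01 (SE 0.0825, exact permutation p = 0.889, adjusted p = 0.960). The ratio of B2m to H2-K1 was 5.16 ± 0.225 and 5.18 ± 0.723, a log2 difference of -0.00 (SE 0.0903, exact permutation p = 0.960, adjusted p = 0.960). The spread itself was wider in the libraries labelled cKO, with a log2 SD of 0.192 against 0.0622 for B2m to H2-K1, and this difference in spread was not tested.

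The transporter genes stood lower in the order. Tap1 (ENSMUSG00000037321, chr17:34405996-34416199, plus strand) was at 21.41, 27.53, 28.05, 28.06 and 27.1 FPKM in WT 1 to 5 and at 32.71, 16.94, 25.44, 12.4 and 12.08 FPKM in cKO 1 to 5. The highest value of all was in cKO 1 and the lowest in cKO 5. The log2 difference was -0.51 (SE 0.256, limma adjusted p = 0.127), and without cKO 1 it was -0.72 (limma adjusted p = 0.0164). Tap2 (ENSMUSG00000024339, chr17:34422501-34435829, plus strand), the other chain of the transporter, varied less, at 26.86 to 31.6 FPKM and 19.77 to 26.93 FPKM. Only cKO 1 overlapped with the WT range, and the difference of -0.29 (SE 0.0849) passed with a limma adjusted p of 0.0154. Leaving out any 1 library kept it below 0.05, while median-ratio scaling (0.0967) and the Xist term (0.148) did not.

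The ratio of Tap1 to Tap2 was 0.911 ± 0.113 in the libraries labelled WT and 0.816 ± 0.286 in those labelled cKO, and did not pass (log2 difference -0.22, SE 0.239, exact permutation p = 0.397, adjusted p = 0.556). Tap1 and Psmb9 lie head to head, and their annotated exons overlap over 743 bp. Whether the counting used strand was not stated, so fragments there cannot be assigned to one of them. The ratio of Tap1 to Psmb9 was 1.45 ± 0.0628 in the libraries labelled WT, the narrowest of the 7 ratios there on the log2 scale, and 2.27 ± 0.782 in those labelled cKO. The log2 difference was 0.58 (exact permutation p = 0.00794, adjusted p = 0.0139). The lowest library labelled cKO was at 1.54 and the highest labelled WT at 1.53, so the groups were apart by a narrow margin. Leaving out any 1 of the 5 libraries labelled WT took its adjusted p to 0.0972.

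Tapbp (ENSMUSG00000024308, chr17:34134873-34148267, plus strand), which encodes tapasin, was at 41.56 to 47.45 FPKM among the libraries labelled WT. In cKO 1 and 3 it was at 44.79 and 44 FPKM, within that range, and in cKO 2, 4 and 5 it was at 28.62, 28.65 and 28.03 FPKM. The log2 difference was -0.40 (SE 0.144, limma adjusted p = 0.0442). It no longer passed when any 1 of the 5 libraries labelled WT, or cKO 2, 4 or 5, was left out, with adjusted p-values over all alternatives from 0.0102 to 0.262.

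Nlrc5 (ENSMUSG00000074151, chr8:95160984-95253900, plus strand), the class I transactivator, had the lowest level and the widest spread of the 10 genes. It was at 4.91, 9.9, 9.54, 7.42 and 6.67 FPKM in WT 1 to 5 and at 6.61, 3.18, 5.52, 0.5 and 2.12 FPKM in cKO 1 to 5. The log2 difference of -1.44 was the most negative of the 10, but with an SE of 0.562 it did not pass (limma adjusted p = 0.0567). It was called without cKO 1 and without cKO 3, at log2 differences of -1.76 and -1.70. Without cKO 4 it was at -0.89, under the fold threshold (limma adjusted p = 0.0566). In cKO 4, where Nlrc5 was lowest, 7 of the 10 genes were at the lowest of the libraries labelled cKO.

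The spread within the libraries labelled cKO was shared in part by the genes. In cKO 2, 4 and 5 all 10 genes were below every library labelled WT. In cKO 1 this held for 5 of the 10 and in cKO 3 for 2 of the 10, and these 2 libraries held the highest cKO value of all 10 genes, cKO 1 for 4 and cKO 3 for 6. Not every gene was higher in cKO 1 than in cKO 2, 4 and 5. Psmb8 was at 14.98 FPKM in cKO 1 against 17.6 and 19.14 FPKM in cKO 2 and 5. Psmb10 was at 18.99 against 20.33 and 23.21 FPKM, and H2-K1 at 169.87 against 178.48 FPKM in cKO 5. Among the libraries labelled WT, WT 1 held the lowest value of 8 of the 10. The summed level of 29 interferon-stimulated genes set cKO 1 and 3 apart, at 629 and 565 FPKM against 285, 269 and 268 FPKM in cKO 2, 4 and 5. It was at 496 to 599 FPKM among the libraries labelled WT. A sum is led by its most abundant genes, and Isg15 and Irf7 of the list were above every library labelled WT in cKO 1 and 3. The neutrophil marker sum was also highest in cKO 1 of the libraries labelled cKO, at 2628 FPKM against 148 to 1123 FPKM in the others, with 2752 to 3731 FPKM among those labelled WT. The stromal and endothelial sum, at a low level, was also highest in cKO 1 and 3, at 1.12 and 1.05 FPKM against 0.39 to 0.96 FPKM. The mast cell and basophil sum and the megakaryocyte sum were highest in cKO 1, at 577 and 193 FPKM, followed by cKO 5 at 301 and 170 FPKM. Several other markers did not split the libraries in this way. Mpo and Elane of the neutrophil list were highest in cKO 5 among the libraries labelled cKO, at 392 and 247 FPKM against 277 and 184 FPKM in cKO 1. Ctsg of that list was highest in cKO 1, at 277 FPKM against 222 FPKM in cKO 5. The monocyte and dendritic cell sum (216 against 57.8 FPKM in cKO 1), the pan-leukocyte sum and the T and NK cell sum were highest in cKO 5. The part of interferon-stimulated expression or of cell composition in the class I levels was not tested.

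**Figure D4:**
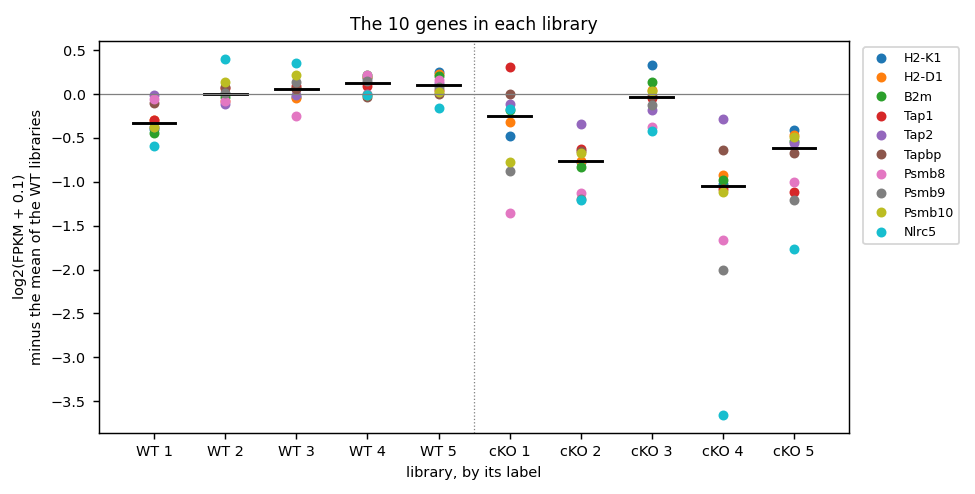
Each of the 10 genes (coloured points) in each library (x axis) as log2(FPKM + 0.1) minus its mean over the libraries labelled WT (y axis), with the median of the 10 genes as a black bar. In cKO 2, 4 and 5 all points lie below 0, while cKO 1 and 3 hold points on both sides.

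Levels per length kept nearly the same order in both groups. In both, B2m, H2-D1 and H2-K1 came first and Psmb9 and Nlrc5 last. B2m did not overlap with H2-D1 in either group, nor H2-K1 with the fourth gene, Tapbp. H2-D1 and H2-K1 overlapped over libraries, although H2-D1 was higher than H2-K1 within each of the 10 libraries. The order between them differed for Psmb8 and for Tap2 and Psmb10. Psmb8 was number 5 among the libraries labelled WT, at 38.8 FPKM, and number 8 among those labelled cKO, at 18.7 FPKM, behind Tap2, Psmb10 and Tap1, whose ranges overlapped its own. Psmb10 stood above Tap2 among the libraries labelled WT and below it among those labelled cKO, with overlapping ranges in both.

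The genes with the most similar profiles were found by the root mean square difference of log2(FPKM + 0.1) values over the 10 libraries, each gene centred on its own mean, among 12343 other genes averaging 1 FPKM or more. For H2-K1 they were H2-T10, H2-Ab1 and Pld6, with differences of 0.181, 0.182 and 0.187. H2-T10 is a class Ib heavy chain and H2-Ab1 a class II β chain. Within the 10 genes, H2-D1 (0.117) and B2m (0.128) were nearer to H2-K1 than these. For Psmb8 they were Dapp1, Lpar2 and Tor3a (0.136, 0.142 and 0.158), and no other of the 10 genes was as near, Psmb9 being nearest at 0.268. For Nlrc5 they were Gm12250, Lgmn and Cd5l (0.266, 0.363 and 0.391). These likenesses describe the 10 libraries and carry no test.

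Of 18 class Ib heavy chain genes listed, 9 could be tested, and all 9 had negative differences. Among them 4 were called lower, beside 16.8% of all genes, and 7 passed the adjusted p as lower, beside 28.3%. Their median log2 difference was -0.93. H2-M3, which presents formylated peptides, was at 8.73 to 12.71 FPKM among the libraries labelled WT and at 2.67 to 5.46 FPKM among those labelled cKO (log2 difference -1.47, limma adjusted p = 0.000194). H2-T23, which encodes Qa-1, a ligand of NK cell receptors, was at 32.46 to 39.91 and 20.2 to 30.19 FPKM, and H2-T22 at 11.59 to 13.79 and 4.92 to 10.49 FPKM. These 3 of the 9 did not overlap between groups, beside 21.6% of all genes wholly below. H2-T23 and H2-T22 passed the adjusted p (limma, 0.00164 and 0.00192) without the fold. H2-Q7 (-2.37, limma adjusted p = 0.00305) and H2-Q6 (-1.50, limma adjusted p = 0.00464) were called, at under 4 FPKM in every library. Both lost the call with the Xist term and in the low-Xist libraries, with adjusted p up to 0.119 for H2-Q7 and 0.156 for H2-Q6, and H2-Q6 also with a pseudocount of 1 and under quantile normalization. H2-T24 was at -0.66 (limma adjusted p = 0.0330) and passed under 9 of the 21 alternatives, with adjusted p up to 0.209, while H2-Q4 (-0.54) and H2-T10 (-0.70) did not pass. The caution about near-identical copies holds for all of these genes.

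Among 5 class I-like molecules, 3 were called lower, beside 16.8% of all genes. These 3 did not overlap between groups, beside 21.6% of all genes wholly below. Fcgrt, the neonatal Fc receptor that recycles IgG, was at 6.8 to 11.11 FPKM among the libraries labelled WT and 0.03 to 2.43 FPKM among those labelled cKO (log2 difference -3.61, limma adjusted p = 0.00186). Hfe, which tunes iron uptake, was at -2.47 (limma adjusted p = 0.00232), and Cd1d1, which presents lipids to NKT cells, at -1.65 (limma adjusted p = 0.000283). Mr1, which presents vitamin metabolites to MAIT cells, was at 0.12 and did not pass. In the low-Xist libraries Fcgrt and Hfe no longer passed (limma adjusted p = 0.0548 and 0.0767). Monocyte and dendritic cell markers were lower in the same libraries, as given above.

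The peptide-loading list counted 6 of 8 genes lower by adjusted p, beside 28.3% of all genes, and 1 called lower, beside 16.8%. The one called was Tapbpl, which encodes TAPBPR, a second peptide editor. It was at 9.95 to 12.13 FPKM among the libraries labelled WT and at 2.88 to 4.62 FPKM among those labelled cKO (log2 difference -1.43, SE 0.134, limma adjusted p = 5.62e-05). The others that passed, named after their values were seen, were the chaperones Calr (-0.84), Pdia3 (-0.68) and Canx (-0.20), the trimming peptidase Erap1 (-0.80) and the folding sensor Uggt1 (-0.67). Lnpep (-0.25) and Bcap31 (0.01) did not pass. Of 8 cytosolic peptidases, 1 passed as higher (Prep, 0.63) and 2 as lower (Npepps, -0.58, and Nrdc, -0.27), shares near the 16.7% and 28.3% of all genes. The list median was 0.19, and 5 passed as higher under median-ratio scaling.

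Of 10 proteasome activators and assembly factors, 4 passed as higher, beside 16.7% of all genes, and 1 as lower, beside 28.3%. None reached the fold threshold. Those higher, named after their values were seen, were Psme3 (0.83) and Psme4 (0.44), which encode nuclear proteasome activators, and the assembly chaperones Psmg1 (0.52) and Psmg2 (0.59). The one lower was Pomp (-0.32), an assembly factor with a known preference for immunoproteasomes. Psme1 (-0.16, limma adjusted p = 0.139) and Psme2 (-0.21, limma adjusted p = 0.0756), the interferon-inducible activator, did not pass.

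Of 15 transcription regulators of class I genes, 1 was called lower, beside 16.8% of all genes, and 1 higher, beside 4.6%. By adjusted p 6 passed as lower, beside 28.3%. Irf1, an interferon-induced activator of class I and immunoproteasome genes, was at 9 to 12.39 FPKM among the libraries labelled WT and at 0.64 to 3.85 FPKM among those labelled cKO, without overlap (log2 difference -2.05, SE 0.400, limma adjusted p = 0.00181). Relb, a subunit of NF-κB, was called higher from a low level, at 0.45 to 0.79 and 1.08 to 2.86 FPKM (log2 difference 1.34, limma adjusted p = 0.00248). In the low-Xist libraries neither passed (limma adjusted p = 0.0537 for Irf1 and 0.0638 for Relb), and Relb was not called with a pseudocount of 1. Named after their values were seen, Rfx5 (-0.88), Nfya (-0.80) and Creb1 (-0.53), which encode parts of the complex that NLRC5 works through, passed as lower, as did Irf2 (-0.84) and Stat2 (-0.89). Other listed parts of that complex, Rfxap (-0.04), Rfxank (-0.35), Nfyc (-0.12) and Nfyb (0.13), did not pass, and neither did Irf9 (-0.03).

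Of 29 interferon-stimulated genes, 6 were called lower and none higher, and 7 passed the adjusted p as lower, shares near the 16.8% and 28.3% of all genes. The list had 24 of 29 negative differences and a median of -0.80. Of the 29, 4 lay wholly below in the libraries labelled cKO, beside 21.6% of all genes. The guanylate-binding protein genes Gbp3 (-2.52, limma adjusted p = 0.00196) and Gbp2 (-2.28, limma adjusted p = 0.00364) and the antiviral Mx1 (-1.51, limma adjusted p = 0.00448) did not overlap between groups. None of these 3 passed in the low-Xist libraries (limma adjusted p = 0.0618, 0.0770 and 0.0719), and Mx1 was not called with a pseudocount of 1. Zbp1 (-2.05, limma adjusted p = 0.0309) was called but lost its call under 11 of 21 alternatives. Genes of the same list such as Isg15 (0.83, limma adjusted p = 0.465) and Irf7 (0.04, limma adjusted p = 0.966), named after their values were seen, did not pass. In cKO 1 and 3 Isg15 was at 36.18 and 69.13 FPKM and Irf7 at 27.34 and 14.26 FPKM, above every library labelled WT. The highest labelled WT were at 13.07 and 7.25 FPKM. In cKO 2, 4 and 5 Isg15 lay within the WT range and Irf7 below it. Gbp2, Gbp3 and Mx1 were below every library labelled WT in cKO 1 and 3 too. The MX1-Cre transgene uses the promoter of Mx1, and Mx1 itself was at 2.88 to 3.62 FPKM among the libraries labelled WT and 0.53 to 2.26 FPKM among those labelled cKO.

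For comparison, of 12 class II genes tested 8 were called lower, beside 16.8% of all genes, with a median log2 difference of -1.85. The lysosomal protease Ctss, which is not specific to class II, was at -4.07 (limma adjusted p = 0.00218, and 0.0644 in the low-Xist libraries). The peptide-exchange chaperones H2-DMb1 and H2-DMb2 were at -3.14 and -2.47 (limma adjusted p of 0.000144 and 0.000677). H2-Ob, which tunes that exchange, was at 3.14 to 6.04 FPKM among the libraries labelled WT and 0.12 to 0.58 FPKM among those labelled cKO (limma adjusted p = 9.71e-05). The groups did not overlap for these chaperones or for Ctss. Of the 12 genes, 7 lay wholly below, beside 21.6% of all genes, and the others overlapped. The class II α and β chain genes H2-Aa (-1.65), H2-Ab1 (-0.47) and H2-Eb1 (-0.89), named after their values were seen, did not pass. Their limma adjusted p-values were 0.0736, 0.149 and 0.299. In cKO 3 they were at 5.69, 8.35 and 8.78 FPKM, above every library labelled WT, which reached 4.95, 8.28 and 4.41 FPKM. Whether class I and class II genes differed in their change was not tested.

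**Figure D5:**
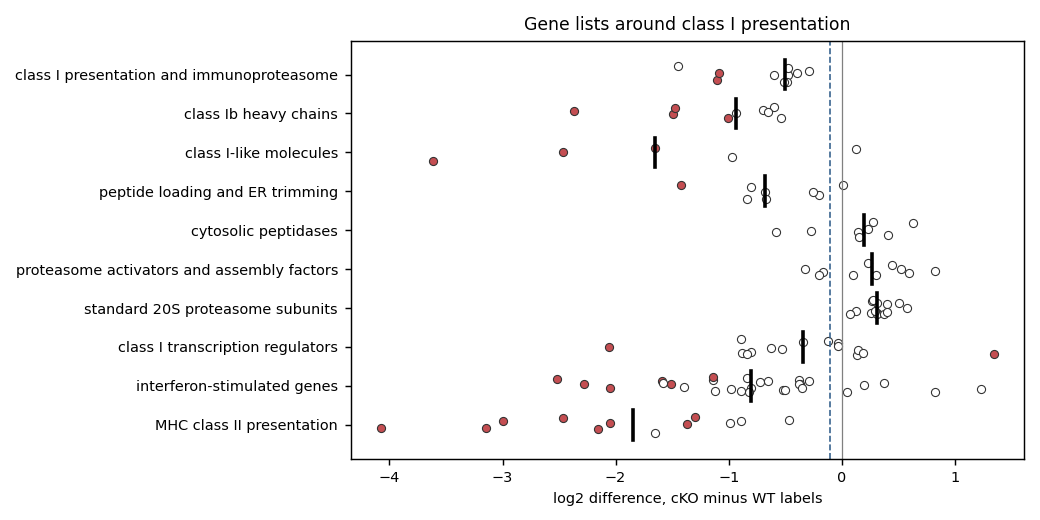
Log2 difference between the libraries labelled cKO and WT (x axis) of each tested gene (points, filled red where called) in 10 gene lists (y axis), with the list median as a black bar and the median of all genes tested, -0.11, as a dashed line. The standard proteasome subunits lie above 0, and the medians of the class Ib, class I-like and class II lists, at -0.93, -1.65 and -1.85, lie below the -0.50 of the 10 genes, with ranges that overlap and no test of the difference.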

How the data were processed

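Lin− bone marrow cells were profiled by RNA-seq in 5 libraries labelled WT and 5 labelled cKO. The submitters' processing notes name cutadapt 1.9.1, HISAT2 2.0.1 and HTSeq 0.6.1 with build GRCm39, without an annotation release. The authors deposited FPKM per gene, rounded to 2 decimals, with depth and length already divided out, so no count test was run. Depth was recovered from genes with 1 transcript of at most 1000 bp, where 96.8% to 97.2% of low values were whole within 0.2 of a fragment. Symbols, positions and exon lengths came from GENCODE vM39 (GRCm39). The test was limma 3.58.1 with a trend (R 4.3.3) on log2(FPKM + 0.1), two-sided, Benjamini-Hochberg adjusted over the 18746 genes averaging 0.1 FPKM or more. Fold changes on this scale understate low genes. On simulated data (5 against 5, 18746 genes, 200 of them given a log2 change of 2) 92.5% were recovered with 5 false calls. The changed genes were drawn from the more abundant ones, with the same spread in both groups. The simulation does not show how well smaller changes, such as those of the 10 genes, are recovered. No pair of libraries agreed within sampling noise. The members and lists were chosen with earlier results of these data known. Genes were named by rule: all 10 and Dhx9, the standard partners, class Ib chains of at least 1 FPKM, up to 4 called genes a pathway list, up to 3 of the most abundant markers a list, and the 3 most similar genes to H2-K1, Psmb8 and Nlrc5. Alternatives were other pseudocounts, filters, scalings, no trend, a replicate block, an Xist term and left-out libraries.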

Additional observations from a re-analysis of the deposited data

Results flagged for a closer look

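For 5 of the 102 gene-or-ratio groups of 5 libraries examined, 1 library stood far from the other 4, with a gap to its nearest neighbour above 0.71 of the whole range. Chance flags about 1 in 20 such groups, or 5.1 here. Tap1 was at 21.41 FPKM in WT 1, with the other libraries labelled WT at 27.1 to 28.06 FPKM. WT 1 also stood apart for H2-Q6, at 0.98 FPKM against 1.94 to 2.26 FPKM, and for Cd1d1, at 13.66 FPKM against 7.15 to 9.03 FPKM. Tapbpl was at 2.88 FPKM in cKO 4, with the other libraries labelled cKO at 4.16 to 4.62 FPKM. Zbp1 was at 2.47 FPKM in cKO 3, with the others at 0.04 to 0.59 FPKM.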

How the results depend on the processing

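Under each of the 21 alternatives all 10 genes kept a negative difference, and each lay below the median of all genes, which quantile normalization moved from -0.11 to 0.08. Of the 210 values of single genes, 200 kept their direction and side of the call, 7 lost the call (Psmb9 under 6 alternatives, Psmb8 without cKO 4) and 3 gained it (Nlrc5). A gene not called in the main fit keeps its side by staying uncalled. The adjusted p alone passed under 21 of the 21 alternatives for Psmb8 and under 19 for Psmb9. It passed under 18 for Tap2, 15 for Psmb10, 8 for H2-D1 and 7 for Tapbp. The number of the 10 genes called lower was 1 under median-ratio scaling, quantile normalization, the Xist term and the low-Xist libraries, and 6 by adjusted p alone. The Xist term and the low-Xist libraries give the same log2 differences, with WT 1 and WT 2 alone on the WT side. The number called lower ranged from 0 to 3 with 1 library left out. Genes called higher and lower over the whole table numbered 862 and 3153, 356 and 1486 with a pseudocount of 1, 462 and 1827 among genes averaging 1 FPKM or more, and 3137 and 5298 by adjusted p alone. Those called higher numbered 1482 under quantile normalization, which raised their share of calls from 21.5% to 38.8%, and 541 in the low-Xist libraries. Pld6 changed sign, to 0.21, under quantile normalization. The cause was not tested for any of these. In the low-Xist libraries the Psmb8 to Psmb5, Psmb9 to Psmb6, Psmb10 to Psmb7 and Tap1 to Psmb9 ratios differed by -1.41, -1.23, -0.99 and 0.51, and B2m to H2-K1 by 0.0335, a change of sign, with no ratio passing in this smaller set. With 1 library left out, B2m to H2-K1 ranged from -0.0800 to 0.0424, H2-K1 to H2-D1 from -0.0539 to 0.0558, and Tap1 to Psmb9 from 0.42 to 0.70, and the last no longer passed when any 1 library labelled WT was left out. Same-numbered libraries correlated at -0.0103 to 0.117, over 0.1 in 1 of 5 pairs, so the numbers were not taken to pair them. With the replicate block Psmb8 and Psmb9 were again the 2 genes called, and the paired ratio differences of -1.39, -1.38, -1.01 and 0.58 could not pass with 5 pairs. Depth limits Nlrc5 most, at about 63 fragments in cKO 4.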
